A study of Mus musculus with 4 samples.

Results

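The ephrins, Eph receptors, semaphorins, plexins and neuropilins are families of cell-surface and secreted proteins that guide moving cells and growing axons. They were taken by symbol from 4 RNA-seq libraries of mouse induced epiblast stem cells (iEpiSCs), and gave 53 genes of the 29267 gene identifiers measured: 8 ephrins, 14 Eph receptors, 20 semaphorins, 9 plexins and 2 neuropilins. Of the libraries, 2 were of genotype c-Jun-/- and 2 were wild type, and each genotype had the replicate numbers 2 and 3. The cells of both genotypes began as embryonic stem cells in medium with 2i and LIF. They were replated for 8 hours and then converted in medium with 20 ng/ml Activin A, 20 ng/ml bFGF, 2 µM XAV939 and 2.5 µM IWR-1, the last 2 being inhibitors of canonical Wnt signalling. Colonies appeared after 4 to 5 days, and iEpiSCs were afterwards kept as epiblast stem cells. The labels state neither the number of clones nor whether replicates were separate cultures, so p-values measure the spread between these samples, and genotype cannot be told apart from cell line.

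As background, ephrins are ligands that stay on the cell that makes them, so that Eph receptors, a large group of receptor tyrosine kinases, signal at contacts between cells. Ephrin-A proteins hang on a lipid (GPI) anchor and bind mainly EphA receptors. Ephrin-B proteins span the membrane and bind mainly EphB receptors, with EphA4 as a receptor that takes both. Semaphorins are secreted (class 3) or membrane-bound (classes 4 to 7) ligands of plexins, and most class 3 semaphorins need a neuropilin as co-receptor. In early embryos these families are known for boundary formation, cell sorting at gastrulation and vessel growth.

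Total expected counts were 4666559 to 6341342 per library, so that 3 counts, the upper limit for a gene with 0 counts, equal 0.476 to 0.652 CPM (reads of the gene scaled to a common, TMM-adjusted library size). These limits cover counting error only. Jun itself stood at 28.9 and 29.6 CPM in c-Jun-/- and at 106 and 121 CPM in wild type, so its transcript was lower but not absent in the libraries labelled knockout. No source used here states which part of Jun the mutation removes. The EpiSC markers Pou5f1 (406 to 473 CPM) and Fgf5 (181 to 248 CPM) were present in all 4 libraries. Of the 10 EpiSC markers, 7 were called lower in c-Jun-/- cells, Fgf5 among them, and Pou5f1 alone was called higher. Otx2 had 43.8 and 49.4 CPM in c-Jun-/- and 103 and 106 CPM in wild type. Sox2 had 22.4 and 20.4 CPM in c-Jun-/- and 52.8 and 42.0 CPM in wild type. Of 8 naive markers, Esrrb (32 to 44 counts), Tfcp2l1 (18 to 27) and Klf4 (15 to 19) were counted in every library and were not called, Zfp42 had 1 count in 1 library, and Nr0b1, Prdm14, Dppa3 and Tcl1 had 0 counts. The median log2 fold change of chromosome 8 genes was 0.51, above that of all genes, and 2 of the guidance genes, Efnb2 and Nrp1, lie there.

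Promoter windows were looked at because c-Jun binds DNA as part of AP-1, whose binding letters are TGACTCA, and with ATF partners at TGACGTCA. The RefSeq table (GRCm38.p6) held 61 windows for 47 of the 53 genes, each with 250 bases before and 50 bases after a transcription start. TGACTCA, read on both strands, stood in 2 of these windows (3.28%) and in 5.20% of all 32851 windows. TGACGTCA, which reads the same on both strands, stood in 1 window (1.64%), against 1.79% of all windows. The motifs do not contain each other. The windows with a match are printed 5′ to 3′ on the gene's strand, with the match in capitals (in Sema6b it is TGAGTCA, the reverse complement of TGACTCA), followed by the windows of Nrp2 and Plxna2, the called genes with the largest rise and the largest fall, which held neither motif. The matches lie 33 bases before the start in Epha2 (chr4:141300971-141301270, plus strand), 22 bases before it in Sema4c (chr1:36558332-36558631, minus strand) and 48 bases before it in Sema6b (chr17:56133803-56134102, minus strand). Sema4c and Sema6b each have another window without a match. The last 25 bases of the matching Sema4c window were found in 0 GENCODE M21 transcripts of the gene, and those of its other window in 2. The matching Sema6b window lies inside the gene (chr17 from 56123085 to 56140343). Its last 25 bases were found in 1 transcript, as were those of the other Sema6b window. The window of Nrp2 is chr1:62703067-62703366 and that of Plxna2 is chr1:194619579-194619878, both on the plus strand.
Epha2: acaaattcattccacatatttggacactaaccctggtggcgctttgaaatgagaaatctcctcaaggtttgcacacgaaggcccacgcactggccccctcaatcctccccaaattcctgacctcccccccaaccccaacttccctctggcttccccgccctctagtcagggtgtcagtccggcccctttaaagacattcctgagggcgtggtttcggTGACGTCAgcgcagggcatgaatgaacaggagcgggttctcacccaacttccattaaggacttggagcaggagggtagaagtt
Sema4c: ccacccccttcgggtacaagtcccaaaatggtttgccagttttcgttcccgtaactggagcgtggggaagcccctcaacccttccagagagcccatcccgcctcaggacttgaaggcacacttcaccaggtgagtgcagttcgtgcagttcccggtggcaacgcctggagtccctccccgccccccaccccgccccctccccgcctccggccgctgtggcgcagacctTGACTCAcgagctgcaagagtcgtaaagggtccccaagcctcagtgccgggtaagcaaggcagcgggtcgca
Sema6b: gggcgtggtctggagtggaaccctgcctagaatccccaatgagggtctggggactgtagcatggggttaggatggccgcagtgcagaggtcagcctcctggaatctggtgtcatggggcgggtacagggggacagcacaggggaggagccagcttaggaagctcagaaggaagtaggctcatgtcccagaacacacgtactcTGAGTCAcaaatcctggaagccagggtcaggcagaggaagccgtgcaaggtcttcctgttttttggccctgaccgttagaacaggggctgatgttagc
Nrp2: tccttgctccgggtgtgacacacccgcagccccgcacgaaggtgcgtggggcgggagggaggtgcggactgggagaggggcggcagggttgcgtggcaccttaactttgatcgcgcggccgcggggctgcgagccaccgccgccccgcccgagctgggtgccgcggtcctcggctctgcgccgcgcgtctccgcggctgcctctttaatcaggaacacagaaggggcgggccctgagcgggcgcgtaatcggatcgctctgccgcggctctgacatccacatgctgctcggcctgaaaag
Plxna2: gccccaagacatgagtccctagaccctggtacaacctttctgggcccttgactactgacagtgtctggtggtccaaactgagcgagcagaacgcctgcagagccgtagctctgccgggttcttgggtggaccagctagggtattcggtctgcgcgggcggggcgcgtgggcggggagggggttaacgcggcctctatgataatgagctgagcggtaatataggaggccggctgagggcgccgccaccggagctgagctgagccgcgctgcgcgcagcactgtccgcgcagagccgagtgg
Epha2 was the only gene of the 12 described below as called whose windows held either motif, and Sema4c and Sema6b did not pass the test. The windows of the guidance genes had a median of 64% G and C and 20 CpG dinucleotides, against 52.7% and 7 over all windows. A match of letters is a description of the window and not a binding site.

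The families were expressed at very unequal levels. On the TPM scale, which is corrected for transcript length and so allows genes to be compared, 5 of the 53 genes had a mean of 100 TPM or more over the 4 libraries. These were the Eph receptors Epha2 (150.3 TPM) and Epha1 (110.0 TPM), the semaphorin Sema6a (129.7 TPM) and the plexins Plxnb2 (145.2 TPM) and Plxna1 (121.4 TPM). At the other end, 11 genes had a mean under 1 TPM. Plxnb3, a receptor known from glia, had 0 counts in every library. Of the 53 genes, 48 had a count in every library, and the median of the mean TPM of the 44 genes that passed the filter on low counts was 15.1, against 26.4 for all 12598 genes tested.

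**Figure D1:**
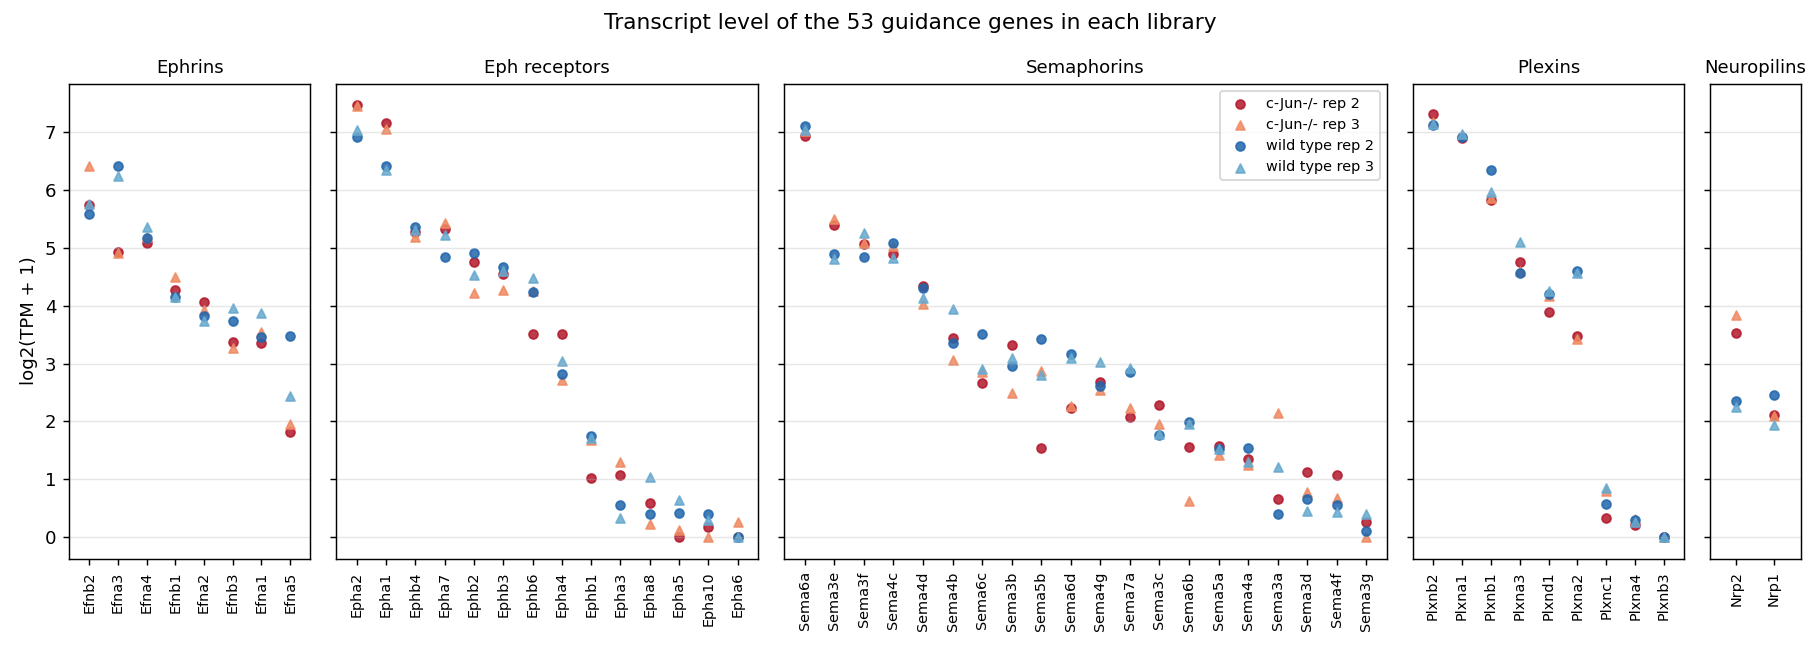
Level of each of the 53 genes as log2(TPM + 1) on the vertical axis, by family and in falling order of the mean, with 1 point per library (red tones c-Jun-/-, blue tones wild type; circles replicate 2, triangles replicate 3). Epha2 and Epha1, Sema6a, and Plxnb2 and Plxna1 stand at the top of their families, and Nrp2, Plxna2 and Efna3 show the genotypes apart.

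The 9 genes below the filter were the receptors Epha5, Epha6, Epha8 and Epha10, the plexins Plxna4, Plxnb3 and Plxnc1, and the semaphorins Sema3g and Sema4f. Epha5 had 0 and 1 counts in c-Jun-/- and 4 and 5 in wild type. Epha8 ranged from 2 to 14 counts, Plxnc1, the receptor of Sema7a, from 6 to 16, and Plxna4 from 7 to 8. Sema4f ranged from 4 to 11 counts, Sema3g from 0 to 4, Epha10 from 0 to 3 and Epha6 from 0 to 2. No genotype difference was tested for these genes.

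Of the 44 tested guidance genes, 7 were called higher and 5 lower in c-Jun-/- cells, a call meaning a Benjamini-Hochberg adjusted p under 0.05 over all 12598 genes in edgeR's quasi-likelihood test of counts. Calls thus made up 27.3% of the tested guidance genes (15.9% higher and 11.4% lower). Over all tested genes they made up 15.5% (8.21% higher and 7.32% lower; 1034 and 922 genes, or 651 and 916 with chromosome 8 centred on its median). The higher genes were Nrp2, Epha1, Epha2, Sema3e, Epha7, Efnb2 and Epha3, and the lower genes were Plxna2, Efna3, Sema6d, Epha4 and Sema6c. The CPM of the genotypes did not overlap for 28 of the 44 genes (63.6%), against 53.9% of all tested genes. The median log2 fold change (knockout over wild type, as everywhere below, with n = 2 per genotype and ± for the standard error) was -0.095, against 0.0015 over all genes. The guidance genes' median moved between -0.13 and -0.0014 when single libraries were left out, the value nearest 0 being that without wild-type replicate 3. The number of lower calls dropped to 3 when replicate 3 of either genotype was left out. In a bulk sample, fewer cells that make a transcript and less transcript per cell cannot be told apart.

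**Figure D2:**
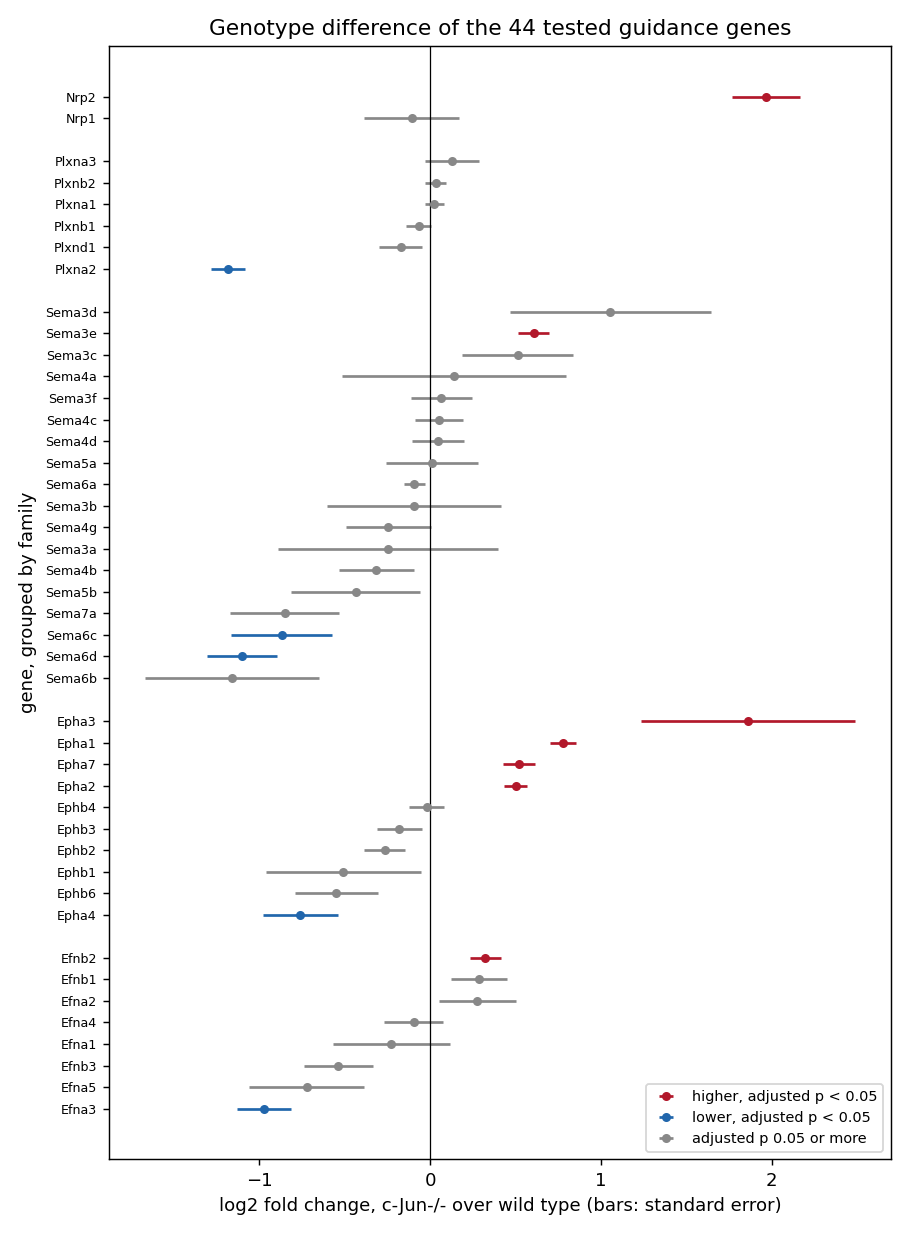
Log2 fold change of the 44 tested genes (horizontal axis, knockout over wild type; bars are the standard error), grouped by family, with red for higher, blue for lower and grey for an adjusted p of 0.05 or more. Nrp2 at 1.97 and Plxna2 at -1.18 stand far from 0 with short bars, whereas Epha3 at 1.86 has a long one.

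Among the Eph receptors, calls were made in the EphA class and not in the EphB class. They made up 50% of the 10 tested Eph receptors, against 15.5% of all tested genes. Of 9 EphA genes 5 passed the filter, and 4 of these were called higher (Epha1, Epha2, Epha7 and, narrowly, Epha3) while 1, Epha4, was lower in counts. All 5 EphB genes passed the filter, and none was called by edgeR, DESeq2 or limma voom. At an unadjusted edgeR p under 0.05, 2 were lower. The 5 log2 fold changes were all below 0, beside a median of 0.0015 over all tested genes. That of Ephb4 was -0.02 ± 0.10, and 0.0052 without wild-type replicate 3. Whether the classes differ was not tested.

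Epha1, a receptor known from epithelia (ENSMUSG00000029859, chromosome 6 from 42358487 to 42373268, minus strand, GRCm38), stood at 243 and 234 CPM in c-Jun-/- and at 142 and 136 CPM in wild type. Both knockout libraries were above both wild-type libraries. The log2 fold change was 0.78 ± 0.08, or 1.71-fold (edgeR adjusted p = 3.2e-09). Epha2, the most abundant Eph receptor here and one known to restrain or promote cell movement depending on its ligand (ENSMUSG00000006445, chromosome 4 from 141301240 to 141329384, plus strand), had 351 and 367 CPM in the knockout and 243 and 264 CPM in the wild type. Its groups also stood apart, with a log2 fold change of 0.50 ± 0.07, or 1.42-fold (edgeR adjusted p = 9.37e-07). In TPM, Epha2 stood at 176 and 175 in the knockout and 120 and 130 in the wild type, and Epha1 at 142 and 133 against 84.7 and 80.4. Epha1 and Epha2 together therefore held most of the Eph receptor transcripts: Epha2 made up 38.4% of the family's TPM in the knockout and 34.8% in the wild type, and Epha1 30.0% and 23.0%.

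Epha7, a receptor used in the developing brain (ENSMUSG00000028289, chromosome 4 from 28813131 to 28967499, plus strand), had 120 and 123 CPM in the knockout and 81.9 and 87.5 CPM in the wild type. The groups did not overlap, and the log2 fold change was 0.52 ± 0.09 (edgeR adjusted p = 1.37e-04). The call was lost with effective length offsets (edgeR adjusted p = 0.185) and by limma on log2(TPM + 1) (0.341), the highest value over the alternatives, of which the lowest was 5.66e-07. Epha3 (ENSMUSG00000052504, chromosome 16 from 63543534 to 63864175, minus strand), a receptor of ephrin-A ligands, was scarce, with 21 and 21 counts in the knockout and 7 and 4 in the wild type, and 3.33 and 4.57 against 1.38 and 0.746 CPM. Its groups did not overlap, and its ratio over summed counts was 3.65 (95% counting interval 1.85 to 7.86). Its log2 fold change of 1.86 ± 0.63 passed narrowly (edgeR adjusted p = 0.0394), and the call held in 6 of 15 alternatives. It was lost without any single library (log2 fold changes 1.49 to 2.35). It was also lost with a filter of 1 CPM in 2 libraries (edgeR adjusted p = 0.0535) and with effective length offsets (0.126). DESeq2 (0.184), limma voom (0.0504) and limma on log2(TPM + 1) (0.226) did not call it.

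Epha4, which binds ephrins of both classes (ENSMUSG00000026235, chromosome 1 from 77367185 to 77515088, minus strand), was the Eph receptor that counts placed lower. It had 15.4 and 10.4 CPM in the knockout and 20.2 and 24.3 CPM in the wild type, without overlap, and a log2 fold change of -0.76 ± 0.22 (edgeR adjusted p = 0.0148). The TPM did not follow: the knockout had 10.4 and 5.53 TPM and the wild type 6.03 and 7.27 TPM, and here the groups overlapped. The deposited effective length of Epha4, which RSEM derives from the isoforms it assigns, was 2655 and 3284 bases in the knockout and 6120 and 6041 bases in the wild type. With effective length offsets the log2 fold change became 0.30 (edgeR adjusted p = 0.647), and by limma on log2(TPM + 1) it became 0.18 (0.822, the highest over the alternatives; the lowest was 0.00213). Leaving out replicate 3 of the knockout (edgeR adjusted p = 0.162) or of the wild type (0.151) also ended the call, as did DESeq2 (0.128).

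The EphB receptors, which serve among other roles in vessel formation (Ephb4) and gut and neural patterning (Ephb2, Ephb3), had log2 fold changes from -0.55 to -0.02. Ephb4 had 37.6 and 35.4 TPM in the knockout and 40.0 and 38.6 TPM in the wild type, with a log2 fold change of counts of -0.02 ± 0.10. Ephb2 stood at -0.27 ± 0.12 (edgeR adjusted p = 0.145) and Ephb3 at -0.18 ± 0.13 (0.422), with the CPM of the genotypes apart in each case. Ephb6, a receptor without kinase activity, stood at -0.55 ± 0.24 (edgeR adjusted p = 0.133), and the scarce Ephb1 at -0.51 ± 0.45 (16 to 30 counts per library). None of these values passed the threshold in any alternative.

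Of the 8 ephrins, all of which passed the filter, Efna3 fell, Efnb2 was called higher and 6 did not pass the threshold. Calls thus made up 25% of the ephrins, against 15.5% of all tested genes. Efna3, a ligand of EphA receptors (ENSMUSG00000028039, chromosome 3 from 89313899 to 89322965, minus strand), had 24.4 and 21.8 CPM in the knockout and 45.7 and 45.3 CPM in the wild type. The groups stood far apart and the log2 fold change was -0.97 ± 0.16, with 1.96 times as much in wild type (edgeR adjusted p = 2.14e-05). In TPM the fall was larger, from 84.7 and 74.9 in the wild type to 29.6 and 29.1 in the knockout, and the effective length was 987 and 1096 bases in the wild type and 1477 and 1300 bases in the knockout. With effective length offsets the log2 fold change was -1.40. Its call held in all 15 alternatives run.

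Efna3 lies 32.8 kb from Efna1 and 10.4 kb from Efna4 on chromosome 3. The neighbours did not pass the test: Efna4 had 33.0 and 35.6 TPM in the knockout and 34.9 and 40.3 TPM in the wild type (log2 fold change of counts -0.10 ± 0.17), and Efna1 had 9.19 and 10.7 TPM against 9.95 and 13.6 TPM (-0.23 ± 0.34). Efna2 stood at 0.28 ± 0.23. Efna5, known for repelling axons in the visual system, stood at -0.72 ± 0.34 (edgeR adjusted p = 0.162). Efna3 took 53.5% of the ephrin-A TPM in the wild type and 32.2% in the knockout, shares that rest on effective lengths of Efna3 that differed between the genotypes.

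Efnb2, the ligand of Ephb4 in arteries and veins (ENSMUSG00000001300, chromosome 8 from 8617434 to 8661242, minus strand), had 121 and 132 CPM in the knockout and 104 and 97.9 CPM in the wild type. The groups did not overlap, and the log2 fold change was 0.32 ± 0.09 (edgeR adjusted p = 0.0132). Measured against the median of chromosome 8, Efnb2 stood at -0.19 (edgeR adjusted p = 0.205), below its chromosome. The call also ended on leaving out replicate 3 of the knockout (edgeR adjusted p = 0.152) or of the wild type (0.107), with effective length offsets (0.238), by DESeq2 (0.0828) and by limma on log2(TPM + 1) (0.4, the highest over the alternatives; the lowest was 0.00268). Efnb1, which lies on the X chromosome, stood at 0.29 ± 0.16 and Efnb3 at -0.54 ± 0.20 (edgeR adjusted p = 0.266 and 0.074), neither past the threshold in any alternative.

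Set side by side as ligand and receptor, the ephrin-A and EphA sums differed between the genotypes in opposite directions. The summed TPM of the 9 EphA genes was 369 and 358 in the knockout and 239.7 and 256 in the wild type, and that of the 5 ephrin-A genes was 89.97 and 92.4 against 153 and 145. The EphA sum was higher and the ephrin-A sum lower in both knockout libraries. The ephrin-A difference lay mostly in Efna3, the only ephrin-A gene called, with 29.6 and 29.1 TPM in the knockout and 84.7 and 74.9 in the wild type. The effective length of Efna3 also differed between the genotypes. Epha2 and Epha1 held 48.4% and 37.8% of the EphA TPM in the knockout and 50.4% and 33.4% in the wild type. The ratio of EphA to ephrin-A TPM was 4.10 and 3.87 in the knockout and 1.57 and 1.76 in the wild type, and 3.78 and 3.75 against 1.86 and 1.83 when 1 mean effective length per gene was used. The ephrin-B sum was 80.4 and 115 TPM in the knockout and 76.2 and 84.9 in the wild type, and the EphB sum 97.4 and 91.8 against 114 and 108. The ephrin-B groups overlapped and the EphB groups did not. The ratio of EphB to ephrin-B TPM lay the other way, at 1.21 and 0.799 in the knockout and 1.495 and 1.27 in the wild type, and at 1.06 and 0.962 against 1.34 and 1.34 with mean effective lengths. These sums were given no test.

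**Figure D3:**
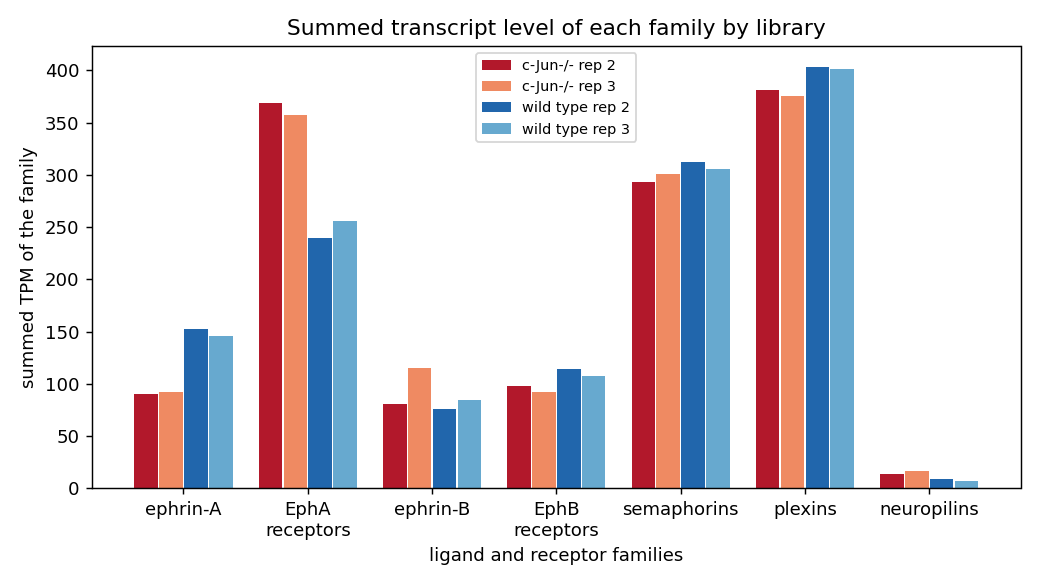
Summed TPM of each ligand and receptor family (vertical axis) in each library (bars from 0; red tones c-Jun-/-, blue tones wild type). The ephrin-A bars are lower and the EphA bars higher in the knockout, while the semaphorin and plexin bars differ little between libraries. Efna3 was the only ephrin-A gene called.

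Among the 20 semaphorins, 18 passed the filter, and 1 rose (Sema3e), 2 were called lower (Sema6d and Sema6c) and 15 did not pass the threshold. Calls thus made up 16.7% of the tested semaphorins, near the 15.5% of all tested genes. Sema3e, a secreted ligand that binds plexin-D1 without a neuropilin and is known for steering vessels (ENSMUSG00000063531, chromosome 5 from 14025276 to 14256689, plus strand), had 141 and 153 CPM in the knockout and 100.3 and 91.97 CPM in the wild type. The groups did not overlap, and the log2 fold change was 0.61 ± 0.09, or 1.52-fold (edgeR adjusted p = 8.15e-06). The call held in 14 of 15 alternatives, the exception being limma on log2(TPM + 1) (adjusted p = 0.0863; the lowest over the alternatives was 1.51e-10). Its neighbour Sema3a, 423 kb away, had only 5 to 22 counts per library, and its log2 fold change of -0.25 ± 0.64 took the other sign with effective length offsets (1.01). Sema3d (1.05 ± 0.59) and Sema3c (0.51 ± 0.33), on the same stretch of chromosome 5, did not pass either (edgeR adjusted p = 0.254 and 0.332).

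Of the other class 3 semaphorins, Sema3f, the repellent ligand that acts through neuropilin-2, had 32.6 and 33.0 TPM in the knockout and 27.6 and 37.4 TPM in the wild type, so that the wild-type values enclosed those of the knockout. Its log2 fold change of counts was 0.06 ± 0.18. Sema3b, its neighbour on chromosome 9 at 72.3 kb, was scarce (15 to 25 counts per library; -0.10 ± 0.51).

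The class 6 semaphorins, which span the membrane and bind plexin-A receptors, differed among themselves. Sema6a, the most abundant semaphorin with 42.0% of the family's TPM in the knockout and 43.5% in the wild type, had 121 and 129 TPM in the knockout and 138 and 131 TPM in the wild type. Its log2 fold change of counts was -0.09 ± 0.06 (edgeR adjusted p = 0.353), although the genotypes did not overlap. Sema6d, a ligand of plexin-A1 studied in the heart (ENSMUSG00000027200, chromosome 2 from 124089969 to 124667770, plus strand), had 11.9 and 11.96 CPM in the knockout and 26.1 and 25 CPM in the wild type. The libraries of each genotype lay close together and the genotypes far apart. The log2 fold change was -1.10 ± 0.20, with 2.14 times as much in wild type (edgeR adjusted p = 1.82e-04). Its call was lost by limma on log2(TPM + 1) alone among the 15 alternatives (adjusted p = 0.108; the lowest was 2.91e-06).

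Sema6c, another member of the class (ENSMUSG00000038777, chromosome 3 from 95160457 to 95174024, plus strand), had 7.45 and 6.09 CPM in the knockout and 12.9 and 12.1 CPM in the wild type, without overlap. Its log2 fold change of -0.87 ± 0.29 passed narrowly (edgeR adjusted p = 0.0409). The call held in 6 of 15 alternatives. Among others, it was lost without any single library (log2 fold changes -1.03 to -0.74), with effective length offsets (edgeR adjusted p = 0.478) and by DESeq2 (0.214). In TPM it had 5.35 and 6.26 in the knockout and 10.5 and 6.45 in the wild type, so that the highest knockout and the lowest wild-type library lay close together without overlap. Sema6b, with 24 and 5 counts in the knockout and 30 and 30 in the wild type, stood at -1.16 ± 0.51 (edgeR adjusted p = 0.132) and passed in 1 alternative, without knockout replicate 2 (-2.38, adjusted p = 0.0269). All 4 class 6 log2 fold changes were below 0, with Sema6a the smallest in size, beside a median of 0.0015 over all tested genes.

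The class 4, 5 and 7 semaphorins gave no call by edgeR, DESeq2 or limma voom (1 of 8 tested genes, Sema7a, was lower at an unadjusted p under 0.05). Sema4c, a ligand of plexin-B2, had 28.7 and 31.8 TPM in the knockout and 33.1 and 27.3 TPM in the wild type (0.05 ± 0.14 in counts). Sema4d, the ligand of plexin-B1 first known from immune cells, had 19.2 and 15.3 TPM against 18.9 and 16.5 (0.05 ± 0.15). In both genes the values of the genotypes interleaved on the TPM scale. Sema4b stood at -0.31 ± 0.22, Sema4g at -0.24 ± 0.25 and Sema4a, with 6 to 13 counts, at 0.14 ± 0.66. Sema5a stood at 0.01 ± 0.27 and Sema5b at -0.43 ± 0.38. Sema7a, which hangs on a GPI anchor and binds plexin-C1 and integrins, had 3.22 and 3.67 TPM in the knockout and 6.21 and 6.56 in the wild type, and a log2 fold change of counts of -0.85 ± 0.32 (edgeR adjusted p = 0.0704; 0.0573 to 0.29 over the alternatives).

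Of the 9 plexins, 6 passed the filter, and Plxna2 alone was called. This is 16.7% of the tested plexins, near the 15.5% of all tested genes. Plxna2, a receptor of class 6 semaphorins and, with neuropilins, of class 3 semaphorins (ENSMUSG00000026640, chromosome 1 from 194618218 to 194816869, plus strand), had 58.8 and 57.2 CPM in the knockout and 134 and 129.7 CPM in the wild type. The genotypes were far apart and the replicates close. The log2 fold change was -1.18 ± 0.10, with 2.27 times as much in wild type and the smallest adjusted p of the guidance genes (edgeR, 1.85e-10). Its call held in all 15 alternatives (log2 fold changes -1.20 to -1.13). In TPM it went from 23.2 and 22.6 in the wild type to 10.2 and 9.77 in the knockout.

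The more abundant plexins lay close to 0. Plxnb2, a receptor of class 4 semaphorins needed for neural tube closure, had 157 and 144 TPM in the knockout and 139 and 139.8 TPM in the wild type, and Plxna1 118 and 123 TPM against 119.7 and 125. Their log2 fold changes of counts were 0.03 ± 0.06 and 0.02 ± 0.06. Plxnb1 stood at -0.07 ± 0.07, Plxna3 at 0.13 ± 0.16 and Plxnd1, the receptor of Sema3e, at -0.17 ± 0.12 (edgeR adjusted p = 0.405). Plxnb2 and Plxna1 held 39.9% and 31.9% of the plexin TPM in the knockout, and Plxna2 2.63% (5.70% in the wild type). The family's sum was 382 and 375 TPM in the knockout and 403 and 401 TPM in the wild type.

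Of the neuropilins, co-receptors that bind class 3 semaphorins and VEGF, Nrp2 rose and Nrp1 did not pass the threshold. Nrp2 (ENSMUSG00000025969, chromosome 1 from 62703285 to 62818695, plus strand) had 34.9 and 46.1 CPM in the knockout and 9.69 and 10.8 CPM in the wild type. The lowest knockout library was far above the highest wild-type library. The log2 fold change was 1.97 ± 0.20, or 3.91-fold (edgeR adjusted p = 7.01e-09), and the call held in all 15 alternatives (1.39 to 2.17). Nrp1, on chromosome 8, had 67 and 49 counts in the knockout and 71 and 48 in the wild type, and stood at -0.11 ± 0.28 (-0.62 with chromosome 8 centred, edgeR adjusted p = 0.161, the lowest over its alternatives). In TPM the neuropilins were close in the wild type, with Nrp2 at 4.10 and 3.75 and Nrp1 at 4.51 and 2.84, whereas in the knockout Nrp2 had 10.6 and 13.4 and Nrp1 3.34 and 3.25. Nrp2 thus made up 52.3% of neuropilin TPM in the wild type and 78.2% in the knockout.

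**Figure D4:**
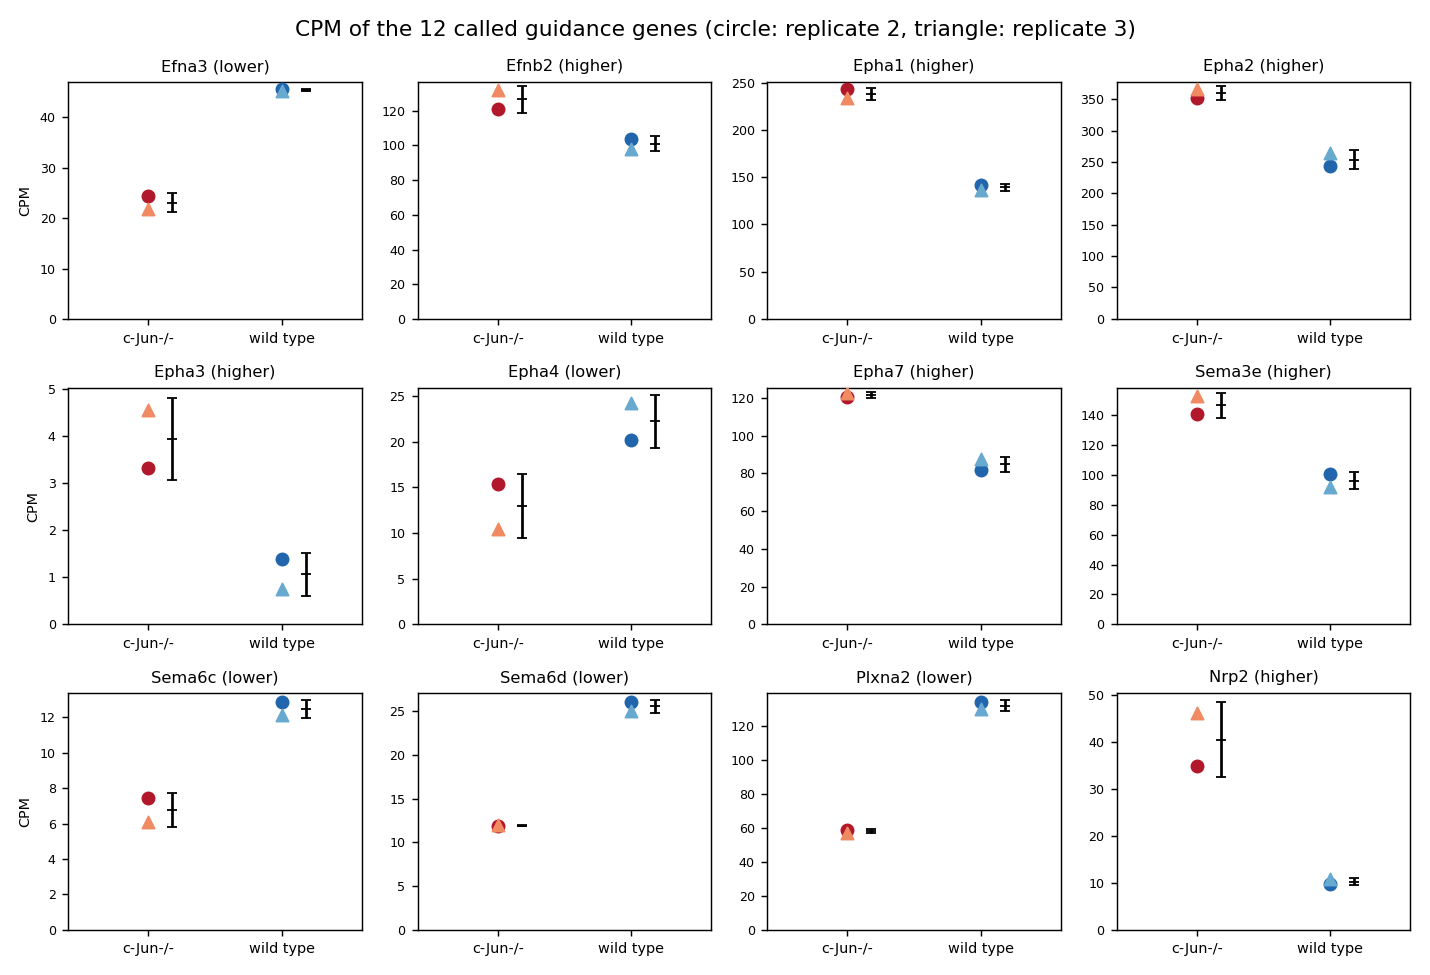
CPM (vertical axis, from 0) of the 12 called genes in each library, by genotype, with the mean and SD beside the points (n = 2; circles replicate 2, triangles replicate 3). Plxna2, Epha1, Sema6d and Efna3 show close replicates and separate genotypes, while Epha3 and Sema6c are at a few CPM.

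The semaphorin and plexin pairs can be read off these values. For Sema3e and Plxnd1, the ligand rose by 0.61 and the receptor stood at -0.17 ± 0.12. For Sema3f and Nrp2, the ligand stood at 0.06 ± 0.18 and the co-receptor rose by 1.97. For Sema6a and Plxna2, the ligand stood at -0.09 ± 0.06 and the receptor fell by 1.18 on the log2 scale. For Sema6d and Plxna1, the ligand fell by 1.10 on the log2 scale and the receptor stood at 0.02 ± 0.06. For Sema4c and Plxnb2 and for Sema4d and Plxnb1, neither side passed the threshold. Plxna2 and the class 6 ligands Sema6d and Sema6c (-0.87) were all called lower, but the Sema6c call held in only 6 of 15 alternatives. Sema6d is set beside Plxna1 above, and whether Sema6d or Sema6c acts on Plxna2 in these cells was not tested. The ratio of plexin to semaphorin TPM was 1.30 and 1.25 in the knockout and 1.29 and 1.31 in the wild type.

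The count and TPM scales were compared for every tested gene, because effective lengths differed between libraries. For Epha1, Epha2, Sema3e and Plxna2 the log2 ratio of mean TPM + 1 was 0.73, 0.49, 0.59 and -1.12, near the log2 fold changes of counts of 0.78, 0.50, 0.61 and -1.18. Besides the lengths of Epha4, shorter in the knockout, and Efna3, longer there, that of Nrp2 was longer in the knockout (5911 and 6000 bases) than in the wild type (4326 and 5227 bases), and its log2 fold change with effective length offsets was 1.65. Within a genotype the lengths could differ as much: Efna5 had 1784 and 3826 bases in the wild-type libraries and Sema3b 471 and 1973 bases in the knockout libraries. The gene tables do not say which isoforms these lengths stand for, and the part of isoform assignment in these differences was not tested.

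**Figure D5:**
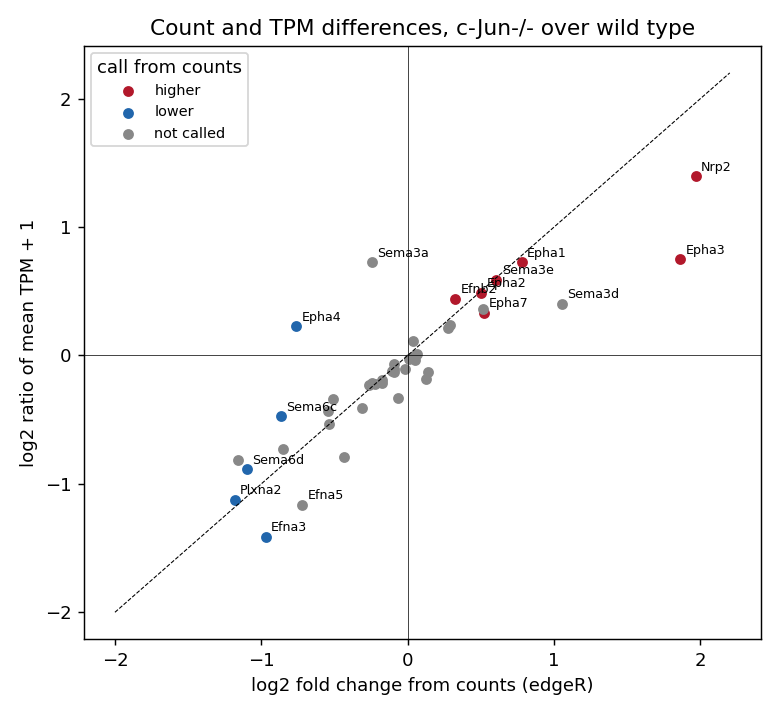
Log2 fold change from counts (horizontal axis) against the log2 ratio of mean TPM + 1 (vertical axis) for the 44 tested genes, coloured by the call from counts; the dashed line marks equal values. Epha4 and Sema3a lie above 0 in TPM but below 0 in counts, and Efna3 and Efna5 are lower in TPM than in counts.

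Other guidance genes and the known partners of these receptors were described from 3 further lists, against the same background of 15.5% called. The first held genes for netrins, Slits, RGM proteins and their receptors, and also Flrt and Adgrl genes (30 of 32 listed symbols were in the tables). Of its 20 tested genes, 2 were higher, 7 were lower and 11 did not pass. Their median log2 fold change was -0.40. Netrin-1 (Ntn1), a secreted guidance cue, had 60.6 and 62.0 CPM in the knockout and 190.3 and 208 CPM in the wild type (-1.70 ± 0.09, edgeR adjusted p = 9.96e-15). Slit3 (-0.80 ± 0.09) and the repulsive guidance molecule Rgma (-0.96 ± 0.16) also fell, and Robo2, a Slit receptor, rose from 2.77 and 1.49 CPM to 9.99 and 9.13 CPM (2.17 ± 0.43, edgeR adjusted p = 3.77e-04). By limma on log2(TPM + 1), Rgma (adjusted p = 0.0524) and Robo2 (0.0786) were not called. Besides Robo2, the higher gene was Adgrl1 (0.28 ± 0.06), which lies on chromosome 8, whose median was 0.51.

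Of 34 tested semaphorin and plexin co-receptors and effectors (42 listed), 3 were higher, 4 were lower and 27 did not pass, with a median of -0.03. Among the collapsin response mediator genes, which act below semaphorin receptors, Dpysl3 fell by 1.42 on the log2 scale (± 0.15) and Crmp1 rose by 0.73 ± 0.10 (edgeR adjusted p = 2.56e-08 and 9.37e-07). Nrcam, an adhesion molecule that joins neuropilin complexes, fell by 1.16 on the log2 scale (± 0.16). Dpysl3 and Nrcam were not called by limma on log2(TPM + 1) (adjusted p = 0.0573 and 0.0827). Gipc1, an adaptor of neuropilin-1, rose by 0.89 ± 0.15. It is a chromosome 8 gene, and centring gave 0.37 (edgeR adjusted p = 0.101). Itgb1, another of the higher genes, stood at 0.32 ± 0.05 and also lies on chromosome 8, whose median was 0.51. Of 28 tested Eph and ephrin adaptors and effectors (31 listed), 3 were higher, 2 were lower and 23 did not pass, with a median of -0.03. Shb, an adaptor of tyrosine kinases, stood at -0.40 ± 0.10, and was not called when replicate 3 of the knockout was left out (edgeR adjusted p = 0.0858) or with effective length offsets (0.406). Chn2, a Rac inhibitor related to the EphA4 effector Chn1, stood at 1.15 ± 0.30 and lost its call without knockout replicate 2 (0.254). Pdlim1, an actin-linked scaffold, stood at -0.51 ± 0.15 (edgeR adjusted p = 0.0170) and was not called without knockout replicate 2 (0.0745), knockout replicate 3 (0.0543) or wild-type replicate 3 (0.102). Arhgef15, an exchange factor studied below Ephb2, had 33 summed counts in c-Jun-/- and 3 in wild type (ratio 10.5, 95% counting interval 3.30 to 53.6). It was not called on leaving out knockout replicate 2 (edgeR adjusted p = 0.141), wild-type replicate 2 (0.116) or wild-type replicate 3 (0.0718).

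Markers of other cell types, in which guidance genes are known to be used, were summed beside these results. Over all tested genes, 8.21% were called higher and 7.32% lower. The 10 neural markers had 142 and 166 CPM in the knockout and 96.3 and 101 CPM in the wild type. Stmn2 alone had 86.6 and 107 CPM against 61.5 and 64.4. Of 8 tested genes, 4 were higher (Stmn2, Sox1, Tubb3 and Pax6), and Neurog1 and Neurog2 had 0 to 2 counts. Sox1 (1.25 ± 0.25) and Tubb3 (2.13 ± 0.48) lie on chromosome 8, whose median was 0.51. Pax6 passed narrowly, with 13 and 19 counts against 5 and 2 (edgeR adjusted p = 0.0490). The 7 endothelial markers had 15.9 and 15.4 CPM against 8.90 and 13.99, with Tie1 and Emcn at 0 counts in all libraries. Of these markers 2, Kdr and Tek, were tested, and neither was called. Kdr alone had 8.1 and 9.1 CPM against 5.1 and 9.1. The 8 fibroblast markers had 70.1 and 66.5 CPM against 78.1 and 70.7, with 1 higher and 2 lower of 7 tested. The 8 extraembryonic endoderm markers had 197 and 197 CPM against 217 and 230, with 2 of 5 tested lower and Afp and Ttr at 0 counts. Foxa2, which was not called, held most of these sums, with 151 and 149 CPM against 147 and 163. Of the 10 EpiSC markers, 7 were lower and 1 was higher. The log2 fold changes of the lower markers were -1.18 (Otx2), -1.14 (Sox2), -1.08 (Fgf8), -0.58 (Cdh2), -0.33 (Fgf5), -0.19 (Dnmt3b) and -0.18 (Pim2). Pou5f1 stood at 0.21, and Nanog and T were not called. The part of such cells in the differences of Nrp2, Epha3, Efnb2 or the other guidance genes was not tested.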

How the data were processed

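RNA was measured in 4 libraries, 2 per genotype, grouped by sample title. The tools named are bcl2fastq, Bowtie2 and RSEM, and the build is mm10, per the submitters' processing notes. Their versions and the gene annotation, not given in the sources used here, are left out. The authors deposited, per the file headers, expected counts (estimated reads per gene, not normalized), TPM, FPKM and effective lengths per library. The deposited FPKM values were not used in a test. The library kit is not stated to keep strand, so overlapping antisense genes cannot be told apart, and reads shared by similar family members are split by estimation.

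Of 29267 gene identifiers, 28756 matched GENCODE M21 (GRCm38). Expected counts were rounded. Genes passing filterByExpr (minimum count 10, minimum total 15) were compared with edgeR 4.0.16 (TMM factors 0.988 to 1.008, quasi-likelihood F test, no covariate, R 4.3.3), and p-values were adjusted over all 12598 genes at a threshold of 0.05. Standard errors are the log2 fold change divided by the square root of F. CPM used TMM-scaled library sizes. Promoter sequences come from RefSeq (GRCm38.p6).

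Every called guidance gene is named with its values, others by level or fold change, and up to 4 called genes with the smallest p from each further list. Adgrl1, Itgb1 and marker genes are named besides. The guidance genes and lists were chosen with earlier results of these data known. Alternatives were other scalings, filters and tools (DESeq2 1.42.0, limma 3.58.1 with voom or on log2(TPM + 1)), offsets for effective length, a block for the replicate number, chromosome 8 centred or left out, and each library left out. The pipeline was tested on simulated counts.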

Additional observations from a re-analysis of the deposited data

How the results depend on the processing

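Of the 12 called guidance genes, 5 (Plxna2, Epha1, Nrp2, Epha2 and Efna3) stayed past the threshold in the same direction in all 15 alternatives, and of the 32 others 1, Sema6b, passed in an alternative. Over all genes, 1034 were higher and 922 lower, against 498 and 341 with effective length offsets, 650 and 473 with DESeq2 and 250 and 170 with limma on log2(TPM + 1), and 651 and 668 higher with chromosome 8 centred or left out. Guidance calls were 4 higher and 3 lower with effective length offsets, and 5 higher and 3 lower with DESeq2. With limma on log2(TPM + 1) they were 3 higher and 2 lower, against the 7 and 5 given above. Leaving out single libraries gave 3 to 5 lower guidance calls and a median log2 fold change of -0.13 to -0.0014.

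With the replicate number as a block, 1250 genes were higher and 1127 lower, with 7 and 5 guidance genes among them; the numbers are not stated to pair samples, and deviations of same-numbered samples correlated at 0.028 over genes.

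Log2 fold changes that changed sign were those of Epha4 (0.30 with effective length offsets, 0.18 with limma on log2(TPM + 1)) and Efnb2 (-0.19 with chromosome 8 centred) among called genes. The others were not called either way. With effective length offsets and limma on log2(TPM + 1), these were Plxna3 (-0.15 and -0.16), Sema3a (1.01 and 0.59) and Sema4a (-0.18 and -0.12), with limma alone Plxna1 (-0.018), Sema4d (-0.038) and Sema5a (-0.027), and without TMM Sema5a (-0.0092). Leaving out single libraries gave both signs for Ephb4 (-0.042 to 0.0052), Efna1 (-0.45 to 0.045), Efna4 (-0.21 to 0.026), Nrp1 (-0.40 to 0.24), Plxna1 (-0.024 to 0.076), Plxna3 (-0.050 to 0.33), Sema3a (-0.92 to 1.12), Sema3b (-0.73 to 0.40), Sema3f (-0.095 to 0.25), Sema4a (-0.30 to 0.76), Sema4b (-0.60 to 0.061), Sema4d (-0.20 to 0.23) and Sema5a (-0.096 to 0.10). The cause was not tested, except that length offsets and TPM use the effective lengths given for Epha4. Among tested guidance genes, Epha3, Ephb1, Sema3a, Sema3b, Sema3d, Sema4a and Sema6b had at most 30 counts in any library.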
